A study of Mus musculus with 12 samples.

Results

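Follicular (FO) B cells that carried 1 floxed Bcl6 allele were compared with FO B cells that carried none, to see which transcripts already differ when a single allele can be lost. The comparison rested on 4 of the 12 arrays of the series, 2 from mb1-cre(+/-)Bcl6(+/flox) mice (heterozygous) and 2 from mb1-cre(+/-)Bcl6(+/+) mice (wild-type), taken by cell type and genotype in the sample titles. All mice were C57BL/6 females aged 10 weeks, and all, controls included, carried 1 mb1-cre allele. That allele expresses Cre recombinase from the Cd79a locus, and so acts in the B lineage from its early stages onward. The cells were splenic, B220+AA4.1-CD21intCD23+, sorted after magnetic depletion of cells bearing markers such as CD43, CD11b, Gr-1 and CD3. The 2 FO arrays from mb1-cre(+/-)Bcl6(flox/flox) mice (homozygous) and the marginal zone (MZ) arrays, with 2 per genotype, are used here only beside the heterozygous values.

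BCL6 is a BTB/POZ zinc finger repressor that recruits corepressors such as SMRT, NCOR and BCOR together with histone deacetylases. It is best known as the factor that germinal centre B cells need, where it holds back genes of cell cycle arrest, the DNA damage response, activation and plasma cell differentiation. FO B cells are the recirculating naive cells of the spleen from which most germinal centre cells arise.

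The DNA motif bound by BCL6 shares its core with STAT motifs, TTCNNNGAA. RefSeq promoter windows (GRCm38.p6, 250 bases before to 50 after a start) were searched for it (it reads the same on both strands, and other motifs may overlap it) for 39 genes, namely Bcl6, the 24 genes with the largest separated heterozygous differences described below, and genes described earlier with homozygous deletion. Of the 33 genes that had a window, 8 held a match (24.2%), against 9.55% of the 27025 genes that had one in the whole table. By window, 21.4% of theirs and 8.3% of all 32851 windows held one. Genes with several starts have several windows, and no test was made of this difference. Those shown are the matches in genes that stood among the largest heterozygous differences, and 1 of the 4 in the Bcl6 windows, each with the 9-base match in capitals and 10 bases on either side.
Sspn, chr6:145933968-145933996, plus strand: tgtcttgtacTTCCTGGAAacaaaaaagt
Klf9, chr19:23141183-23141211, plus strand: cgtgatgggaTTCTGCGAAattgttactg
Nedd4, chr9:72693265-72693293, plus strand: ggtcgtccttTTCTATGAAatctggtatc
Mgst1, chr6:138141607-138141635, plus strand: caggagaagcTTCCAGGAAatgagaaaac
Bcl6, chr16:23981433-23981461, minus strand: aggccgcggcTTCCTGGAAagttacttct
The matches lay 144, 33 and 23 bases before the annotated start for Sspn, Klf9 and Nedd4, 30 bases after it for Mgst1 and 168 bases before it for Bcl6. The Sspn match and the Bcl6 match shown were the same 9 bases, TTCCTGGAA. The Bcl6 match shown is 1 of 4, and the others there were different bases. A match is a description of the sequence and not of binding.

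Each value below is a deposited log2 expression value, so a difference of 1 is a doubling, and differences are given as heterozygous minus wild-type with the standard error (SE) of the model. The arrays carried the FO signature: Fcer2a (CD23) lay at 13.63 to 14.25 on the 4 arrays, Cr2 (CD21) at 12.84 to 13.42 and Ms4a1 (CD20) at 15.11 to 15.29. Of the markers of other cell types, 9 of 10 T cell genes, 9 of 9 natural killer and platelet genes, 9 of 14 macrophage and dendritic genes, 5 of 7 erythroid genes and 6 of 10 neutrophil genes were under 4 on all 4 arrays. Heterozygous replicate 1 differed from the others in its neutrophil genes, whose summed log2 level was 38.9 there, 24.5 in heterozygous replicate 2 and 24.4 to 24.9 in wild-type. Wild-type replicate 1 had the highest list mean of the 4 arrays for germinal centre, plasma cell, and replication and mitosis genes, as given below. Whether the paired arrays of a genotype represent different mice is not stated in the labels. The p-values therefore describe only how far these samples scatter, and that scatter may be technical. In RNA from a sorted population, fewer cells that express a gene and less RNA per cell cannot be told apart.

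Bcl6 itself was measured by 2 probe sets, and neither differed between heterozygous and wild-type arrays by more than the spread allows. The probe set with the higher signal read 11.95 and 11.65 on the wild-type arrays and 11.91 and 12.11 on the heterozygous arrays, so the groups overlapped. Its difference was 0.21 ± 0.22 (SE, n = 2 per group), with a 95% interval from -0.32 to 0.73. The probe set with the lower signal read 4.94 and 5.61 in wild-type and 4.93 and 4.86 in heterozygous arrays. Heterozygous replicate 1 and wild-type replicate 1 lay at about the same level, and the difference was -0.38 ± 0.19 (limma adjusted p = 1 over all probe sets). In homozygous arrays the same probe set read 2.36 and 2.48, and homozygous minus heterozygous was -2.47 ± 0.19 (limma adjusted p = 0.0292 over all probe sets). The probe set with the higher signal went the other way, at 12.70 and 12.88 in homozygous arrays. There, homozygous minus heterozygous was 0.78 ± 0.22, and homozygous minus wild-type was 0.99 ± 0.22 (limma adjusted p = 0.464 over all probe sets). The exons covered by either probe set were not known here, so these values do not check the genotype labels.

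No gene passed the threshold between heterozygous and wild-type FO arrays. Of 9306 tested genes, 0 (0%) had a limma adjusted p under 0.05, and the smallest adjusted p was 1. An unadjusted p under 0.05 was reached by 184 genes (1.98%), 96 of them higher in heterozygous arrays (1.03%) and 88 lower (0.946%). Both heterozygous arrays lay above both wild-type arrays for 1190 genes (12.8%) and below both for 933 (10.0%), together 2123 (22.8%). Differences were positive for 49.8% of the tested genes and negative for 48.9%. The median SE of a difference was 0.25 and the median unadjusted 95% interval reached 0.58 to each side. For a typical gene, a difference smaller than about 0.58 could not be told from 0 even before adjustment. Larger differences also went without a call, such as 2.35 for Dusp5 and -1.06 for Slc41a2. A missing call therefore does not show that a gene was unchanged.

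**Figure D1:**
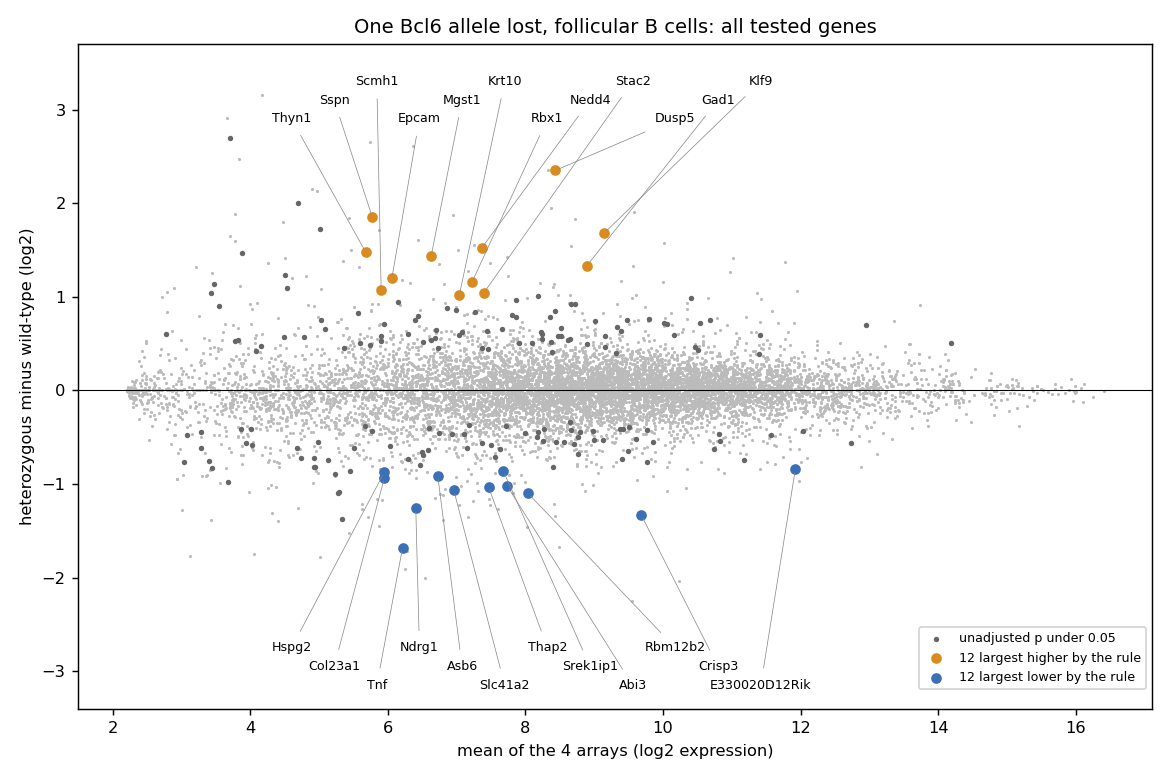
Every tested gene by its mean over the 4 arrays (x axis, log2 expression) and its heterozygous minus wild-type difference (y axis, log2); dark grey points have an unadjusted p under 0.05, and coloured points are the 12 largest separated differences in each direction. None of the 9306 genes passed the adjusted threshold; the coloured points run from 1.02 to 2.35 above 0 and from -0.84 to -1.68 below it.

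The arrays of a group differed from each other as much as the groups did. Over the tested genes the SD of the difference between wild-type replicates 1 and 2 was 0.55, and between heterozygous replicates 1 and 2 it was 0.54. Heterozygous replicate 2 and wild-type replicate 2 were the closest pair across genotypes, with an SD of 0.38 and 222 genes that differed by more than 1. Heterozygous replicate 1 and wild-type replicate 1 were the farthest apart, at 0.62 and 698 genes. Within genotypes, 567 genes differed by more than 1 between the wild-type arrays and 538 between the heterozygous arrays. The means of the 2 genotypes differed by more than 1 for 139 genes (1.49%).

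Since no gene passed, the largest differences are described as values without a call. They were taken among genes with an unadjusted p under 0.05, no overlap between the arrays of the 2 groups, and at least 6 on both arrays of the higher group, criteria that 73 higher and 62 lower genes met. The rule selects for separated arrays, so the separation of these genes is not a finding. The 12 largest in each direction ran from 2.35 (Dusp5) to 1.02 (Krt10), with Cd36 at 1.01 just outside, and from -1.68 (Tnf) to -0.84 (E330020D12Rik), with Cdc23 at -0.82 just outside. The largest difference in each direction fell outside the rule and rested on 1 array of a group. Apol8, with the largest positive difference (3.15), read 2.21 and 2.98 in wild-type and 8.86 and 2.64 in heterozygous arrays. Ctse, which encodes cathepsin E and had the largest negative difference (-2.25), read 12.61 and 8.75 in wild-type and 8.44 and 8.41 in heterozygous arrays.

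Among the higher genes, 3 encode regulators of signalling and transcription. Dusp5, a nuclear phosphatase that inactivates ERK, read 6.80 and 7.72 in wild-type and 10.51 and 8.70 in heterozygous arrays, a difference of 2.35 ± 0.69. Its 2 heterozygous arrays were 1.81 apart, with replicate 1 the higher. Klf9, a Krüppel-like transcription factor, read 8.01 and 8.59 against 10.86 and 9.10, a difference of 1.68 ± 0.71. All 5 measured probe sets of Klf9 were higher in heterozygous arrays, by 1.05 to 1.68, while the representative probe set differed by 1.75 between the 2 heterozygous arrays themselves. Stac2, a member of a family of adaptors of voltage-gated calcium channels, read 6.82 and 6.94 against 7.84 and 8.0. Its replicates lay close together in both groups, and its difference of 1.04 ± 0.17 had the narrowest error of the 12 higher genes.

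Ubiquitin ligase components formed another pair. Nedd4, a HECT-type ubiquitin ligase, read 5.98 and 7.23 in wild-type and 8.40 and 7.86 in heterozygous arrays, a difference of 1.53 ± 0.40. Rbx1, the RING subunit of cullin ligases, read 7.29 and 6.00 against 7.86 and 7.73, a difference of 1.15 ± 0.48. On these probe sets the wild-type arrays were farther apart than the heterozygous ones, so the size of the difference depends on which wild-type array is taken. On the other measured probe set of Nedd4 the heterozygous arrays were the farther apart. It read 3.81 and 4.11 in wild-type and 6.92 and 5.96 in heterozygous arrays, a difference of 2.48 ± 0.40.

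Enzymes of metabolism were Mgst1 and Gad1. Mgst1, a membrane-bound glutathione S-transferase, read 6.79 and 5.03 in wild-type and 7.61 and 7.09 in heterozygous arrays, a difference of 1.43 ± 0.51. Gad1, which makes GABA from glutamate, read 7.31 and 9.15 against 9.69 and 9.43, a difference of 1.33 ± 0.49. In both, 1 wild-type array came within 0.29 of the nearest heterozygous array. The other measured probe set of Gad1 read 5.43 and 4.80 in wild-type and 5.47 and 5.55 in heterozygous arrays, a difference of 0.39 ± 0.52.

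The membrane and structural genes were Sspn, Epcam and Krt10. Sspn, which encodes sarcospan of the dystrophin-glycoprotein complex, read 5.21 and 4.49 in wild-type and 6.77 and 6.63 in heterozygous arrays, a difference of 1.85 ± 0.62. The nearest arrays of the 2 groups were 1.43 apart, against 0.72 between the wild-type and 0.14 between the heterozygous arrays. Epcam, an adhesion molecule, read 6.18 and 4.74 against 6.62 and 6.70, a difference of 1.20 ± 0.39 that ranged from 0.47 to 1.92 when 1 array was left out. Krt10, a keratin, read 6.18 and 6.88 against 7.66 and 7.44, a difference of 1.02 ± 0.28 that ranged from 0.67 to 1.37 in the same way. In Epcam the wild-type arrays were the farther apart, by 1.45. Thyn1, a nuclear protein first found in thymocytes, read 5.40 and 4.49 against 6.81 and 6.03, a difference of 1.47 ± 0.35. Scmh1, a Polycomb group protein, differed by 1.07 ± 0.44, and of the 10 named genes with several measured probe sets it was the exception whose probe sets did not all have the same sign.

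Of the lower genes, Tnf, the inflammatory cytokine, read 6.52 and 7.59 in wild-type and 4.34 and 6.40 in heterozygous arrays, a difference of -1.68 ± 0.64. Its nearest arrays across the groups were 0.12 apart. Crisp3, a secreted cysteine-rich protein, read 10.45 and 10.25 against 8.69 and 9.35, a difference of -1.33 ± 0.57. Ndrg1, a gene repressed by MYC family proteins, read 6.98 and 7.09 against 6.60 and 4.96, a difference of -1.26 ± 0.54. Most of it came from heterozygous replicate 2 on this probe set. On its other measured probe set both heterozygous arrays were lower, at 5.13 and 5.35 in wild-type and 4.35 and 4.22 in heterozygous arrays, a difference of -0.95 ± 0.14.

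Slc41a2, a magnesium transporter, had the smallest unadjusted p of all tested genes (limma, unadjusted p = 0.000121, adjusted p = 1). It read 7.57 and 7.41 in wild-type and 6.33 and 6.52 in heterozygous arrays, a difference of -1.06 ± 0.16. The nearest arrays of the 2 groups were 0.88 apart, against 0.17 between the wild-type and 0.19 between the heterozygous arrays. E330020D12Rik was as tight, at 12.39 and 12.30 against 11.55 and 11.45, a difference of -0.84 ± 0.17. Asb6, an ankyrin repeat protein with a SOCS box, read 7.18 on both wild-type arrays and 6.52 and 6.02 on the heterozygous arrays, a difference of -0.91 ± 0.20. Its other measured probe set barely differed, at 6.99 and 6.85 in wild-type and 6.75 and 6.84 in heterozygous arrays, a difference of -0.13 ± 0.12.

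The other lower genes had smaller or more variable differences. Rbm12b2, an RNA-binding protein, read 9.02 and 8.16 in wild-type and 7.42 and 7.55 in heterozygous arrays, a difference of -1.10 ± 0.32. On its other measured probe set the groups overlapped, at 4.63 and 4.12 against 3.99 and 4.18, a difference of -0.29 ± 0.23. Thap2, a zinc finger protein of the THAP family, read 8.45 and 7.51 against 6.42 and 7.48, a difference of -1.03 ± 0.44 that ranged from -0.51 to -1.56 when 1 array was left out. Wild-type and heterozygous replicates 2 of Thap2 were 0.04 apart. Abi3, an adaptor of the actin-regulating WAVE complex, differed by -1.02 ± 0.27. The matrix genes Col23a1, a transmembrane collagen, and Hspg2, which encodes perlecan, differed by -0.93 ± 0.35 and -0.88 ± 0.23. Srek1ip1, which encodes a partner of a splicing factor, differed by -0.86 ± 0.37.

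**Figure D2:**
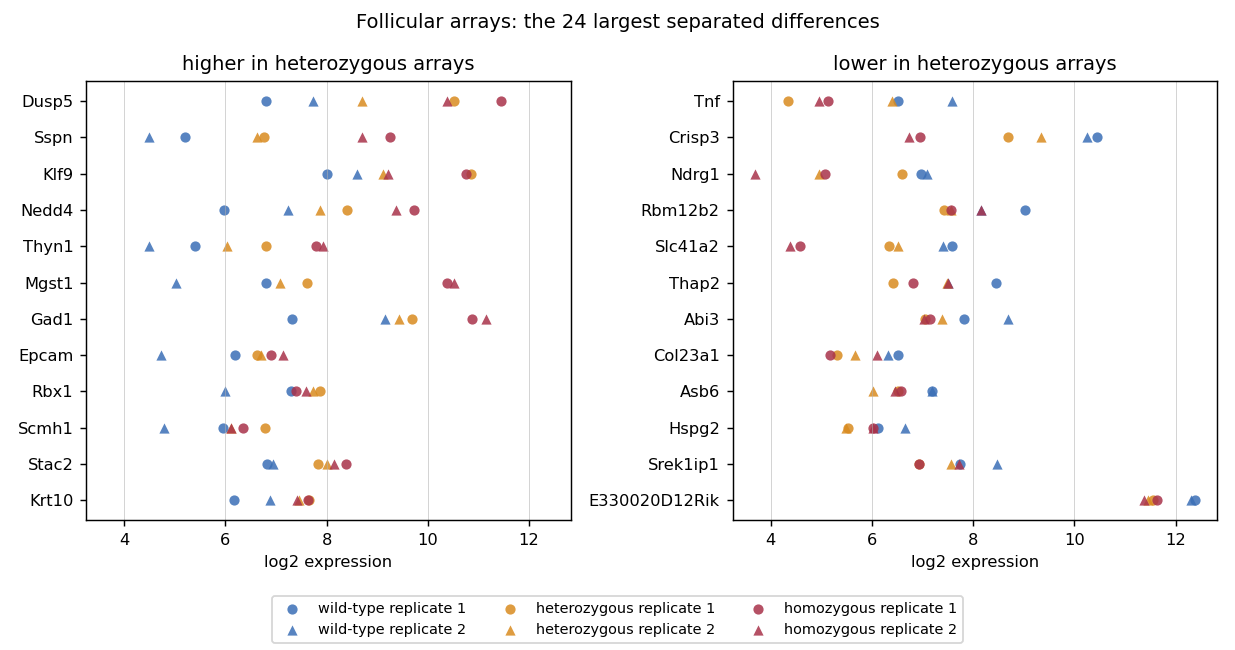
Log2 expression (x axis) of the 24 genes with the largest separated differences, the 12 higher in heterozygous arrays on the left and the 12 lower on the right, on each FO wild-type, heterozygous and homozygous array (circles replicate 1, triangles replicate 2). The 2 arrays of Stac2 and Slc41a2 lie close together in each genotype, while those of Dusp5 (10.51 and 8.70) and Klf9 (10.86 and 9.10) lie apart in heterozygous cells.

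Levels in FO cells with both alleles floxed were set beside these. Comparisons of heterozygous and of homozygous arrays with wild-type share the wild-type arrays, so an accidentally high or low wild-type array moves both the same way. For Slc41a2 the group means were 7.49 in wild-type, 6.43 in heterozygous and 4.48 in homozygous arrays. The homozygous level was 1.95 ± 0.16 lower than the heterozygous (limma adjusted p = 0.0036), a step at which 7 of 9306 genes passed (0.0752%). Il18, which encodes an interleukin of the IL-1 family, read 7.85 and 8.14 in wild-type, 8.89 and 8.81 in heterozygous and 10.23 and 10.50 in homozygous arrays. Its first difference was 0.85 ± 0.18 (limma adjusted p = 1) and its second 1.52 ± 0.18 (limma adjusted p = 0.0426). With the replicate number as a block the second difference passed for Slc41a2 (limma adjusted p = 0.0345) and not for Il18 (limma adjusted p = 0.0883). With the 6 FO arrays fitted alone it passed for neither (limma adjusted p = 0.162 for Slc41a2 and 0.308 for Il18).

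Several of the largest heterozygous differences belonged to genes named earlier for homozygous deletion in FO cells, whose choice used the wild-type arrays. Mgst1 had means of 5.91, 7.35 and 10.45 with 0, 1 and 2 alleles floxed, and Sspn 4.85, 6.70 and 8.98. Nedd4 had means of 6.61, 8.13 and 9.55, and Thyn1 4.95, 6.42 and 7.86. Crisp3 had means of 10.35, 9.02 and 6.84. In each of these 5 genes the heterozygous mean lay between the other 2, and no second difference among them passed (limma adjusted p = 0.105 to 0.64). Other genes had about the same level with 1 and 2 alleles floxed: Klf9 at 9.98 and 9.98, Krt10 at 7.55 and 7.53, and E330020D12Rik at 11.50 and 11.51.

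Genes of the same earlier list ran the other way, with little or no heterozygous difference and a large homozygous one. Pik3r6, a regulatory subunit of class IB phosphoinositide 3-kinase, stood at the minimum of the files (2.21) on both wild-type and both heterozygous arrays, and at 6.71 and 6.36 in homozygous arrays. Sh3bgrl2, a small thioredoxin-like protein, read 2.77 and 2.58, then 2.54 and 2.76, then 6.46 and 6.59. Both were tested against the midpoint between wild-type and homozygous means, the level that equal steps per allele would give on the log2 scale. Heterozygous arrays were below that midpoint by 2.16 ± 0.15 for Pik3r6 and 1.95 ± 0.14 for Sh3bgrl2 (limma adjusted p = 0.0019 for both). They were the 2 genes of 9306 that passed (0.0215%). Both reached the filter on low values only through homozygous arrays, and both were named earlier for their homozygous difference. With wild-type and heterozygous arrays near the minimum, a heterozygous level below the midpoint followed from that choice, so nothing is read from these p-values. An unadjusted p under 0.05 against the midpoint was reached by 103 genes (1.11%). Values at the minimum have no spread, which makes the SE of such genes too small, and a level below the detection range could hold a difference between wild-type and heterozygous cells that the arrays cannot show. Neither gene passed when the 6 FO arrays were fitted alone (smallest limma adjusted p = 0.213).

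Adgrl2, an adhesion G protein-coupled receptor, followed the same levels, at 2.86 and 2.76, then 2.83 and 2.82, then 6.63 and 6.01, without passing against the midpoint (limma adjusted p = 1). Ackr3, the scavenger receptor for CXCL12, was at 2.35 on both wild-type arrays and at 12.15 and 11.14 in homozygous arrays. Its heterozygous arrays disagreed, with 7.15 on replicate 1 and 2.94 on replicate 2, and its difference was 2.70 ± 1.08 (limma adjusted p = 1). Neutrophil transcripts were found on heterozygous replicate 1 (list mean 5.75) and on homozygous replicate 1 (8.11), and not on replicate 2 of either genotype (2.34 on both). Their part in the Ackr3 values was not tested.

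Of the remaining genes named earlier for homozygous deletion in FO cells, Gsn (gelsolin), which cuts actin filaments, read 11.33 and 11.78 in wild-type, 11.02 and 10.59 in heterozygous and 9.68 and 9.58 in homozygous arrays. Its heterozygous difference was -0.75 ± 0.22. Ptpn22, a phosphatase that restrains antigen receptor signalling, differed by 0.74 ± 0.32. Ccnd2, cyclin D2 and a known target of BCL6, read 9.57 and 9.18 against 10.24 and 9.54 on its representative probe set, where the groups overlapped, with 11.38 and 11.18 in homozygous arrays. On another of its probe sets they did not overlap, at 8.99 and 8.86 against 9.71 and 9.27, a difference of 0.56 ± 0.18 (limma adjusted p = 1 over all probe sets). Smyd2, a lysine methyltransferase, differed by 0.70 ± 0.34, Upb1, an enzyme of pyrimidine breakdown, by 0.57 ± 0.37, Chst11, a chondroitin sulfotransferase, by -0.50 ± 0.26 and Ltk, a receptor tyrosine kinase, by -0.09 ± 0.32. The 17 genes of that list had a median heterozygous difference of 0.52, from which nothing is read because they were chosen with the wild-type arrays. Tspan15, Grip2 and Ms4a7, named earlier for deletion in MZ cells, lay at 2.54 or below on all 4 FO arrays, and the median of the 6 genes of that list was -0.06.

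**Figure D3:**
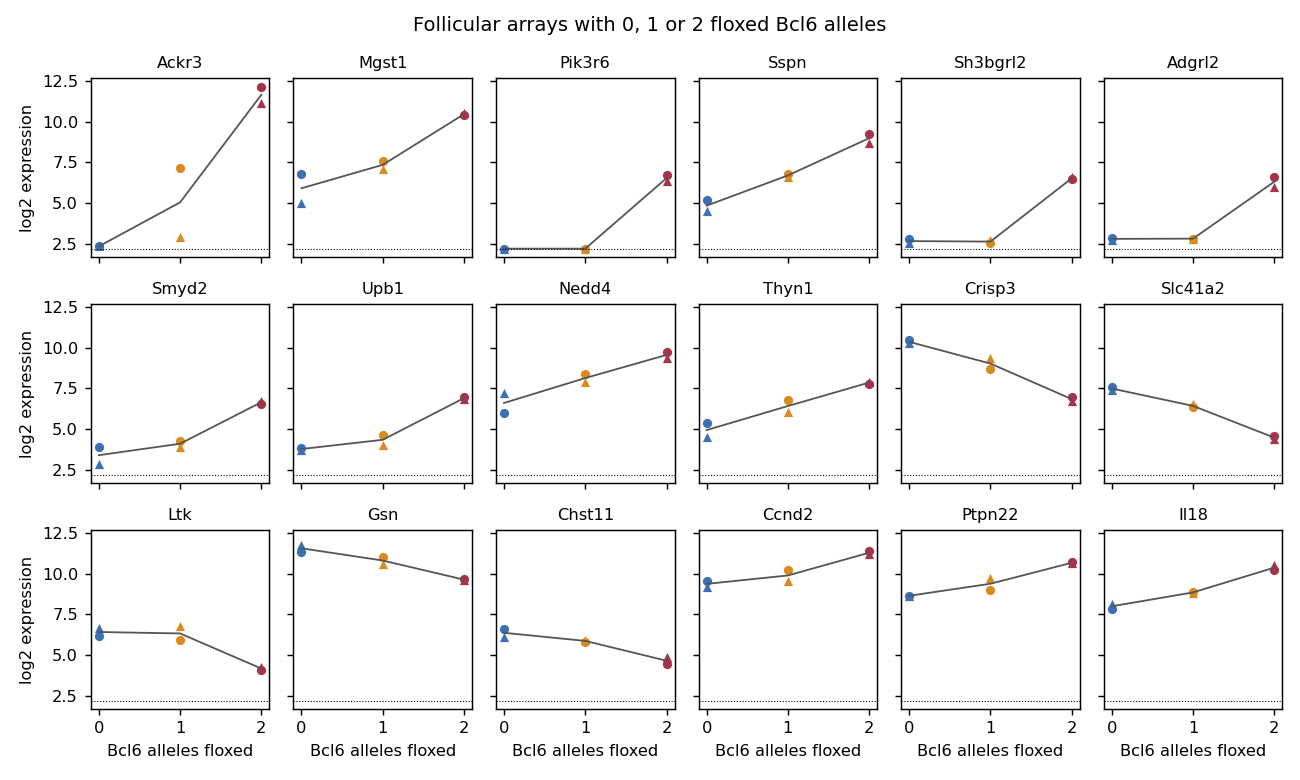
Log2 expression (y axis) on FO arrays with 0, 1 or 2 floxed Bcl6 alleles (x axis) for the 17 genes named earlier for homozygous deletion in FO cells and for Il18; circles are replicate 1, triangles replicate 2, the line joins group means and the dotted line is the minimum of the files (2.21). Mgst1, Sspn, Nedd4 and Thyn1 have heterozygous means between the other 2, whereas Pik3r6, Sh3bgrl2 and Adgrl2 have wild-type and heterozygous arrays at the same low level.

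Members of the BCL6 pathway showed no shared difference. Of 13 tested genes of the BCL6 protein and its partners 0 passed, 7 had positive and 6 negative differences, and the median was 0.06 against 0 over all tested genes. Zbtb17 (MIZ1), a DNA-binding partner of BCL6, was the member whose arrays did not overlap, at 8.20 and 8.53 in wild-type and 8.66 and 8.60 in heterozygous arrays. Bcor, the BCL6 corepressor, read 9.87 and 10.75 against 9.83 and 10.14. Of 23 tested genes known as BCL6 targets 0 passed, and the median difference was 0.09. Prdm1, the plasma cell regulator, was the target whose arrays did not overlap, and it was under 3.10 on all 4 arrays. Myc, a driver of growth, read 10.18 and 12.14 against 12.72 and 11.28, and Irf4, a factor of activated B and plasma cells, 10.27 and 12.35 against 12.58 and 11.48. In both genes wild-type replicate 2 lay above heterozygous replicate 2.

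Programmes of B cell subsets and fates likewise held no called gene. The 5 tested markers of transitional B cells, the newly arrived immature cells of the spleen, had a median difference of 0.27, which was -0.12 without heterozygous replicate 1. The 13 tested FO and mature B cell markers had a median of -0.03, the 12 germinal centre genes -0.08, the 10 plasma cell genes -0.09 and the 17 MHC class II genes -0.03. The germinal centre list mean was 10.52 and 10.26 in wild-type and 10.26 and 10.21 in heterozygous arrays. For plasma cell genes it was 9.07 and 8.56 against 8.95 and 8.58. Without wild-type replicate 1 the germinal centre median was -0.07 and the plasma cell median 0.11. The plasma cell gene Jchain was highest on that array, at 6.88 and 2.61 against 4.86 and 3.35, whereas Irf4 was lowest there. Of the 11 MZ markers, 4 had heterozygous arrays above both wild-type arrays, as did 12.8% of all tested genes, and the median was 0. Among them Cd36, a scavenger receptor, read 7.28 and 8.07 in wild-type and 8.61 and 8.75 in heterozygous arrays, a difference of 1.01 ± 0.26. Fas, the death receptor that marks germinal centre cells, read 5.82 and 5.95 against 5.36 and 5.44, a difference of -0.48 ± 0.28. H2-Eb2, a class II beta chain, read 10.55 and 10.53 against 9.93 and 10.31.

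Signalling lists were centred near 0 as well, at -0.04 for 25 genes of B cell receptor signalling, 0.01 for 11 phosphoinositide 3-kinase subunits, -0.11 for 16 genes of the BAFF, CD40 and NF-kB routes and 0.14 for 15 genes of the Notch2 pathway and Id/E proteins. The median of the BAFF, CD40 and NF-kB list was -0.31 without wild-type replicate 1 and 0.12 without wild-type replicate 2. Members of these lists did not all point one way. Pik3cd, the catalytic subunit p110 delta, read 12.94 and 13.07 in wild-type and 12.63 and 12.26 in heterozygous arrays, a difference of -0.56 ± 0.19. Pik3cg, p110 gamma, read 8.93 and 8.91 against 9.30 and 9.47, a difference of 0.46 ± 0.19. Notch1, a receptor of the Notch family, read 8.25 and 7.98 against 8.66 and 8.61, and Bcl3, an atypical I kappa B protein, 9.67 and 9.75 against 9.23 and 9.40. None of these 4 genes passed (limma adjusted p = 1 for each).

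Cell cycle and stress lists were likewise flat. The median was -0.09 for 33 genes of replication and mitosis, -0.13 for 14 D-type cyclins and G1 inhibitors, 0.03 for 13 DNA damage checkpoint genes, 0.02 for 9 genes of the Bcl2 family, 0.07 for 19 genes of the unfolded protein response, 0.03 for 11 genes of glycolysis, 0.08 for 14 STAT and SOCS genes and 0.01 for 17 genes of migration and homing. Cdkn2d (p19INK4d), an inhibitor of CDK4 and CDK6, read 10.43 on both wild-type arrays and 9.67 and 9.98 on the heterozygous arrays, a difference of -0.61 ± 0.43. Brca1, a DNA repair gene, read 6.52 and 6.59 against 5.87 and 6.31. The migration and homing median was -0.34 without wild-type replicate 1 and 0.35 without wild-type replicate 2. For STAT and SOCS genes these values were -0.23 and 0.34, and for D-type cyclins and G1 inhibitors -0.08 and -0.11. Mki67, a proliferation marker, read 7.40 and 3.62 in wild-type and 5.81 and 4.19 in heterozygous arrays. The replication and mitosis list mean was 5.72 and 5.10 against 5.40 and 5.14.

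**Figure D4:**
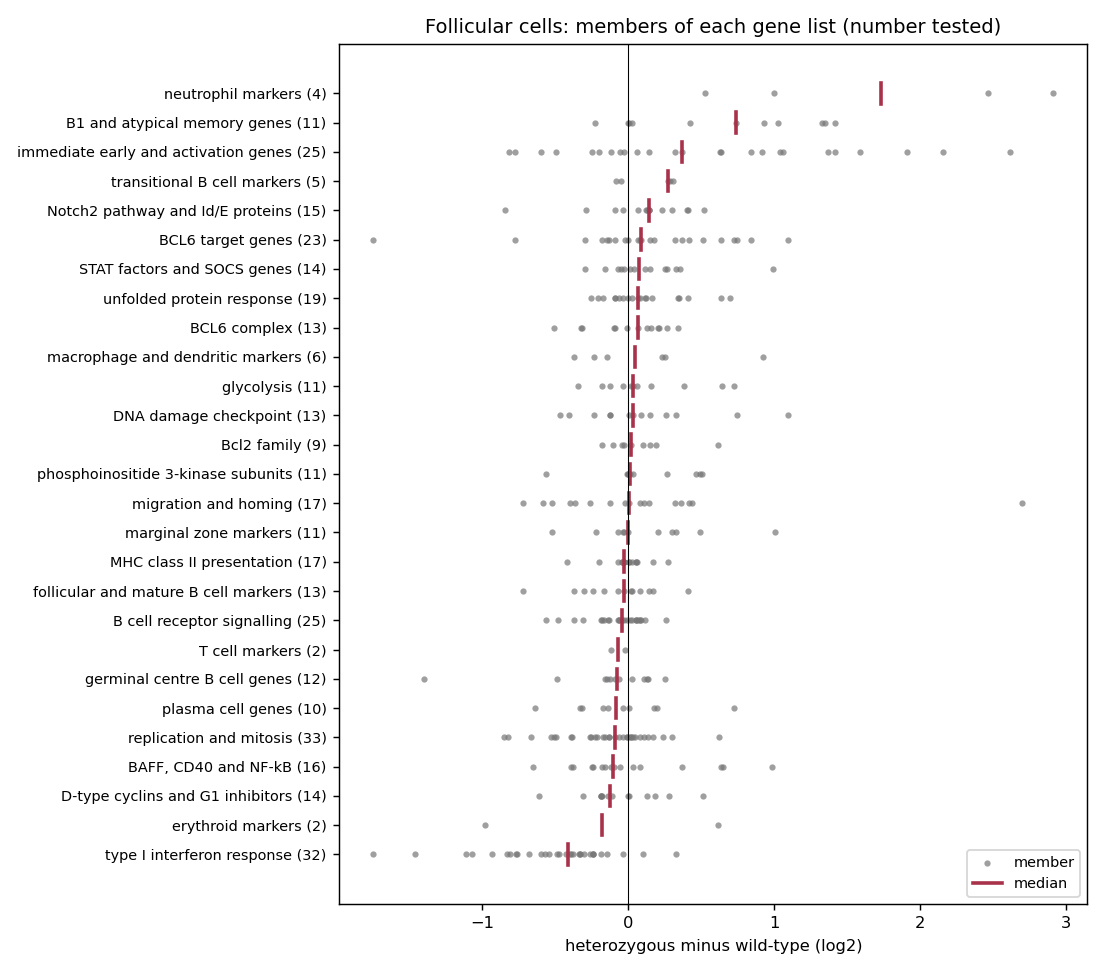
Heterozygous minus wild-type difference (x axis, log2) of each tested member (grey points) of each gene list (y axis, number of members tested in brackets), with the list's median as a red bar. Most medians lie close to 0, and those of the neutrophil, B1 and atypical memory, immediate early, transitional and type I interferon lists lie farther out.

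The genes of B1 and atypical memory B cells had the largest median of the B cell lists, at 0.74 for 11 tested members, 9 of them positive. Of these members 6 had heterozygous arrays above both wild-type arrays and 1 below, against 12.8% and 10.0% of all tested genes, and 0 passed. Ctla4, 1 of the 6, was separated only near the minimum, at 2.215 and 2.217 in wild-type and 3.05 and 2.219 in heterozygous arrays. S100a6, a calcium-binding protein, read 7.78 and 8.13 in wild-type, 9.16 and 8.80 in heterozygous and 10.89 and 10.50 in homozygous arrays. Ahnak, a large scaffold protein, read 9.80 and 9.98, then 10.80 and 10.84, then 12.45 and 12.30. Plscr1, a phospholipid scramblase induced by interferon, read 6.65 and 5.50, then 8.09 and 6.75, then 8.77 and 7.90. Replicates of each genotype kept to separate levels for S100a6 and Ahnak, whose differences were 1.02 ± 0.60 and 0.93 ± 0.53 (limma adjusted p = 1). Other genes that mark these cells did not go with them. Tbx21 (T-bet), the factor of atypical memory B cells, was below the filter and read 4.45 and 3.66 in wild-type and 3.08 and 3.11 in heterozygous arrays. Cd5, Itgam, Itgax and Bhlhe41 were at 2.30 or below on all 4 arrays, and Zbtb32 at 3.43 to 3.52. Spn (CD43), used in the depletion, was the member below, at 7.93 and 8.02 against 7.83 and 7.66. The median of the list stayed between 0.42 and 0.84 when any 1 of the 4 arrays was left out. The list holds genes described earlier for homozygous deletion in these data, and the members share the wild-type arrays with that comparison.

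The type I interferon genes, which cells switch on in antiviral defence, had a median of -0.41 for 32 tested members, 30 of them negative, with 9 below both wild-type arrays and 0 above, against 48.9% of tested genes negative and 10.0% below both. The mean of the list was 9.77 on wild-type replicate 1 and 8.78 on wild-type replicate 2, against 8.71 and 8.79 on the heterozygous arrays. Wild-type replicate 1 alone was high, and without it the median was -0.06. Ifit1, an antiviral RNA-binding protein, read 6.65 and 3.21 in wild-type and 2.97 and 3.39 in heterozygous arrays. Bst2 (tetherin) read 9.25 and 6.30 against 7.66 and 6.23. Psmb8, an immunoproteasome subunit, was a member with arrays apart, at 13.22 and 13.06 against 12.64 and 12.88, a difference of -0.38 ± 0.19.

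Immediate early and activation genes, which respond within minutes to antigen receptor or stress signals, had a median of 0.37 for 25 tested members. Their mean was 8.89 and 11.03 on wild-type replicates 1 and 2 and 11.17 and 9.85 on heterozygous replicates 1 and 2, so the spread within each genotype was larger than the difference between them. The median was -0.35 without wild-type replicate 1 and 1.25 without wild-type replicate 2. Without heterozygous replicate 1 it was -0.16, and without heterozygous replicate 2 it was 1.03. Nr4a1, an orphan nuclear receptor that reports antigen receptor signalling, read 8.76 and 11.85 against 12.82 and 10.62. The direction of this list was thus set by which arrays were used. Dusp5, Klf9, Nedd4, Gad1 and Krt10 were likewise lowest on wild-type replicate 1 and highest on heterozygous replicate 1 of the 4 arrays. The part of this spread in their differences was not tested.

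Neutrophil genes had a median of 1.73 for the 4 tested members, which came from heterozygous replicate 1. S100a9 read 2.21 on both wild-type arrays and 7.94 and 2.31 on the heterozygous arrays, and S100a8, its partner in calprotectin, 2.60 and 2.61 against 7.55 and 2.60. Without heterozygous replicate 1 the median was 0. Mpo, Elane and Csf3r, further genes of the neutrophil lineage, were at 2.21 to 2.23 on all 4 arrays. The 6 tested macrophage and dendritic genes had a median of 0.04, the 2 erythroid genes -0.18 and the 2 T cell genes -0.07. The macrophage and dendritic median was 0.56 without wild-type replicate 1 and -0.39 without wild-type replicate 2.

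**Figure D5:**
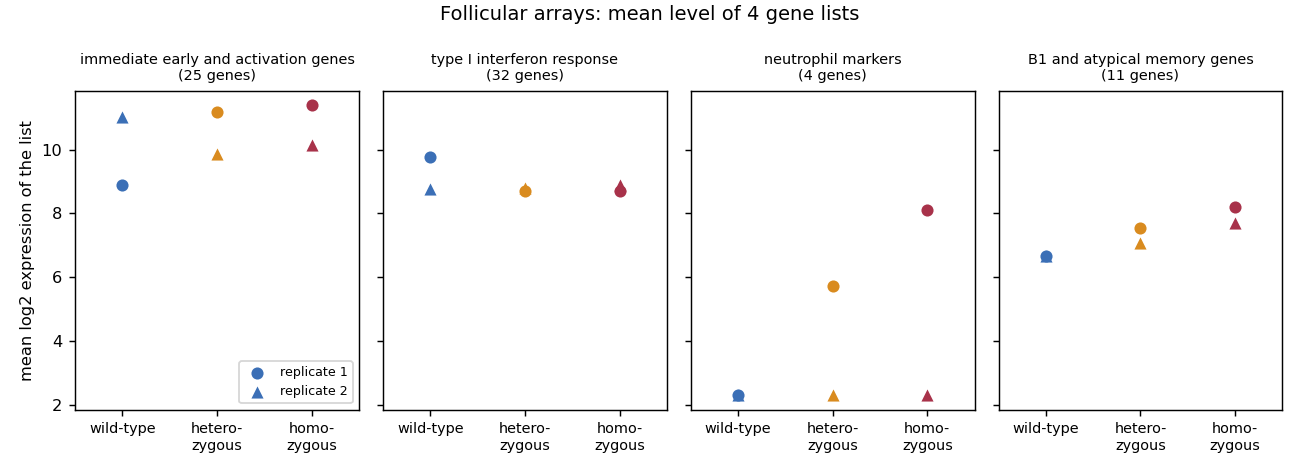
Mean log2 expression (y axis) of the tested members of 4 gene lists on each FO array by genotype (x axis; circles replicate 1, triangles replicate 2). The B1 and atypical memory list separates by genotype, whereas the immediate early list is high on wild-type replicate 2 (11.03) and heterozygous replicate 1 (11.17), the interferon list on wild-type replicate 1 (9.77) and the neutrophil list on heterozygous replicate 1 (5.75). Of all 6 arrays, homozygous replicate 1 is the highest for the immediate early (11.38) and neutrophil (8.11) lists.

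The loss of 1 allele in MZ cells was set beside that in FO cells. The heterozygous difference in MZ minus that in FO was tested for every gene, and 0 of 9306 passed (0%; smallest limma adjusted p = 0.526), with 388 at an unadjusted p under 0.05 (4.17%). Of all tested genes, 10.4% had MZ heterozygous arrays above both MZ wild-type arrays and 17.8% below both. Slc41a2 differed by -0.51 in MZ and -1.06 in FO cells, and Crisp3 by -1.05 and -1.33. The MZ arrays of Crisp3 overlapped, at 4.75 and 2.71 in wild-type and 2.35 and 3.03 in heterozygous arrays. Stac2 differed by 0.02 in MZ and 1.04 in FO cells, and Thyn1 by 0.14 and 1.47. Stac2 lay at 2.43 or below on these MZ arrays, near the minimum, where a difference may not show. Dusp5 differed by -0.74 in MZ and 2.35 in FO cells, with an interval of the difference between them from -5.33 to -0.85 before adjustment (limma adjusted p = 0.813). On MZ wild-type replicate 1 the 3' control probe set of Gapdh exceeded its 5' probe set by 6.90, against -0.08 to 0.63 on the 4 FO arrays. The part of this 3' bias in the MZ differences, and in the spread shared by all groups, was not tested.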

How the data were processed

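Total RNA of sorted cells was measured on 12 Affymetrix arrays in 6 groups of 2. The authors deposited log2 values for each probe set. The submitters' processing notes name GCRMA, of which the version is not given in the sources used here. Low values collect at a minimum (2.21262 on FO, 2.21924 on MZ arrays), so the cell types may have been normalized separately. Of 45101 probe sets (64 controls), 34945 had 1 gene symbol, 932 several and 9224 none listed or were controls; 34741 matched a RefSeq gene number and 0 symbols changed. The probe set with the highest mean represented each of 18193 genes, and 9306 genes that reached log2 4 on 2 or more of the arrays were tested. Group means were fitted over all 12 arrays with limma 3.58.1 (lmFit, eBayes) in R 4.3.3, with 6 residual degrees of freedom, two-sided p-values and Benjamini-Hochberg adjustment over all tested genes, threshold 0.05. The number of arrays limits the precision. The model was tested on simulated data.

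Bcl6 was named with every probe set, then the 12 largest differences in each direction as described, at most 4 low-p members of each of 30 gene lists, and the genes named earlier for homozygous deletion; other members named in the text were chosen after their values were seen. Members and lists were chosen with earlier results of these data known. Alternatives covered the filter, probe set rule, moderation, array weights, centring, arrays fitted, replicate block and each array left out. Replicate numbers were not taken to pair the samples. Deviations of same-numbered arrays correlated at -0.107 between FO wild-type and heterozygous arrays, 0.768 between FO heterozygous and homozygous arrays, and -0.255 to 0.768 over all pairs of groups.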

Additional observations from a re-analysis of the deposited data

Results flagged for a closer look

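For 9 of the 24 genes with the largest separated FO differences, both MZ heterozygous arrays lay on the opposite side of both MZ wild-type arrays. The 5 genes higher in FO heterozygous arrays lay below in MZ, as did 17.8% of all tested genes, and the 4 lower in FO lay above in MZ, as did 10.4%. The FO separation came from the rule that named these genes. That rule did not use the MZ differences, but its p-values came from the fit over all arrays. The scatter between MZ replicates therefore entered the choice, and genes with close MZ replicates could pass more easily. For this reason the shares of all tested genes are not a clean comparison for the MZ separations. The heterozygous effect in MZ minus that in FO was -3.03 for Sspn, -2.87 for Klf9, -1.79 for Epcam, -1.53 for Gad1 and -1.44 for Krt10. It was 1.62 for Thap2, 1.48 for Rbm12b2, 1.37 for Col23a1 and 1.07 for E330020D12Rik. None passed the test of that difference (limma adjusted p = 0.813 for each). Sspn, the largest, read 6.26 and 4.03 on MZ wild-type and 4.01 and 3.92 on MZ heterozygous arrays, so its MZ effect came from MZ wild-type replicate 1, the array with the high Gapdh 3' minus 5' difference. Its value was -1.92 without that array and -4.15 without MZ wild-type replicate 2 (limma adjusted p = 0.0223). That p rests on MZ wild-type replicate 1 as the lone array of its group, assumed to vary like the other groups, and on an FO difference chosen for its size. Gad1 lay at 3.82 or below on the 4 MZ arrays, below the range used to name genes in FO cells.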

How the results depend on the processing

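The 24 named genes kept their sign in each setting run (26, or 25 for Col23a1 and Ndrg1). Their rule required separated arrays, so leaving arrays out could not reverse a sign, and the kept signs are not evidence of robustness. Of the 24, 6 (Slc41a2, Stac2, E330020D12Rik, Asb6, Hspg2 and Thyn1) kept an unadjusted p under 0.05 in each setting. The lowest limma adjusted p of any of the 24 in any setting was 0.117 (Gad1). Leaving out 1 array moved the difference of 15 of the 24 by over 1.5 times, at most 3.23 times (Gad1, 0.41 to 2.25), and Thap2 was at -0.04 without both replicate 1 arrays. The count of called genes between heterozygous and wild-type FO arrays was 1 without a filter on low values (Gm36839) and 0 to 1 when each array was left out (Slc26a10 without FO wild-type replicate 2). Against the midpoint it was 5 without the filter, 0 with the 6 FO arrays alone under either filter, 0 without both FO wild-type replicate 1 and heterozygous replicate 1 (a setting chosen after seeing the data), and 2 to 3 with each array left out. For MZ minus FO it was 4 without the filter and 0 to 65 with each array left out (65 without MZ wild-type replicate 2). The cause was not tested. Genes with an unadjusted p under 0.05 numbered 184, against 321 without the filter, 344 with every probe set, 412 without FO wild-type replicate 2 and 385 without FO heterozygous replicate 2. With the replicate number as a block the count of calls stayed 0 (293 at an unadjusted p under 0.05), and with the numbers of the FO wild-type arrays crossed it was 0 (332), so the block changed no call of that comparison. Homozygous minus heterozygous, added after seeing the data, had 7 calls, 4 with the block and 2 with the 6 FO arrays alone.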
